A study of Homo sapiens with 6 samples.

Results

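TRAF2 was lowered in U251 cells, an established human glioma line, and the remaining members of its adaptor family were read in the same RNA sequencing libraries. The members were TRAF1, TRAF2, TRAF3, TRAF4, TRAF5, TRAF6, TRAF7 and TANK. They were picked by gene symbol as a known family, with earlier results of these data in view though by no threshold on a measured value, and all 8 were present among the 23002 genes of the expression table. The control group, sh-NC, carried a non-targeting lentivirus (3 samples), and the knockdown group, sh-TRAF2, carried a lentivirus with a short hairpin RNA against TRAF2 (3 samples). Both groups were stable lines made by viral infection and puromycin selection from 1 cell line, and neither group received a further treatment. The labels count the samples of a group as biological replicates and do not say whether they were separate infections, so the p-values below measure the spread between these samples. Values are FPKM, that is fragments scaled to the length of the gene and to the depth of the sample, which allows levels of different genes to be compared per length. The question was whether any paralogue of TRAF2, or TANK, was present at a higher level where TRAF2 was low.

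TRAF proteins carry the signal of tumour necrosis factor receptors, Toll-like receptors and interleukin receptors to kinases and ubiquitin ligases. TRAF2 has a C-terminal MATH domain and is recruited to tumour necrosis factor receptors. It recruits the ligases BIRC2 and BIRC3 (cIAP1 and cIAP2), which place ubiquitin chains on RIPK1 and start the canonical NF-kappaB pathway. With TRAF3, the same complex keeps the kinase MAP3K14 (NIK) low in resting cells and so restrains the non-canonical NF-kappaB pathway. TANK is no TRAF paralogue. It is a scaffold that binds TRAF proteins and the kinases TBK1 and IKBKE.

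The study designed 2 TRAF2 hairpins, each against a stretch of 21 bases. Which of them was in the sequenced line is not given in the sources used here, so both targets are shown, 5′ to 3′, because they are the sequences that tie the knockdown to TRAF2. The capitals in the first mark a stretch of 7 bases whose occurrence in other members is given below.
sh-TRAF2#1: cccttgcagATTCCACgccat
sh-TRAF2#2: ctggaccaagacaagattgaa
Both targets matched TRAF2 with 0 mismatches. In the GRCh38 genome with GENCODE release 29, target 1 lay in coding exon 7 of TRAF2 at chr9:136916579-136916599 and target 2 in coding exon 8 at chr9:136920480-136920500, both on the plus strand. The build and annotation of the expression table are not given in the sources used here, so these coordinates describe the targets and not the table.

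No other member held a full copy of either target. The closest stretch of target 1 had between 7 and 8 mismatches in the 7 other members, and that of target 2 had between 6 and 8. The longest exact run shared with either target was 9 bases. The best stretch for target 2 in TRAF1 and in TRAF4, and that for target 1 in TRAF7 and in TANK, are printed because these members come up in the results, with capitals at the mismatched bases.
TRAF1 against target 2: ctggaccaGAacaaCCGtgaG
TRAF4 against target 2: ctggacTaTgCcaagatCTaC
TRAF7 against target 1: cccttgcCTaCtccCcgcGGG
TANK against target 1: TTcttgTGAattccacTcAaG
The TRAF1 stretch lay in coding exon 8 at chr9:120905203-120905223 on the minus strand, and the TRAF4 stretch was joined across coding exons 2 and 3 on chromosome 17. The TRAF7 stretch lay in coding exon 4 at chr16:2168131-2168151 and the TANK stretch in coding exon 3 at chr2:161203575-161203595, both on the plus strand. Matches this loose also occurred outside the family. Among 10611 tested genes with a coding transcript, 23.8% held a stretch with at most 7 mismatches to target 1 and 69.5% one with at most 8. For target 2, 9% held a stretch with at most 6 mismatches. These genes were searched only in their longest coding transcript and the members in all their transcripts, so the shares are not a like comparison. The 7 bases in capitals in target 1, ATTCCAC, are the run that the printed TANK stretch shares with that target. Finding them in TANK therefore adds nothing to that match. Runs of 9 bases were shared by TRAF3 with target 1, and by TRAF6 and TANK with target 2. ATTCCAC occurred in the longest coding transcript of 19.1% of these genes. Among the members, it was found in the coding part of TRAF2, in the coding part of TANK and in the 3′ UTR of TRAF3. The transcripts searched for TRAF1, TRAF4, TRAF5, TRAF6 and TRAF7 did not hold it.

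The reads behind the values were recovered from the FPKM steps and ranged from 33999558 to 36823562 per sample. The members together took between 39863 and 45288 of them per sample. Replicates correlated at 0.993 to 0.995 on the log2 scale, and within each group any 2 replicates lay further apart than counting allows (chi-square of 5.79 to 14.9 per gene, where counting alone gives about 1). The glioma markers VIM, CD44 and SOX9 were present in all samples, with VIM between 1208 and 1606 FPKM, while S100B was listed at 0 in 5 of 6 samples and GFAP stood at 0.334 to 1.62 FPKM. The 7 glioma markers measured summed to 1434 to 1507 FPKM in sh-NC and 1782 to 1829 FPKM in sh-TRAF2, most of it VIM. VIM and NES (mean 5.35 to 11.7 FPKM) rose. The mean of GFAP was also higher (0.467 to 1.18 FPKM, limma adjusted p = 0.0382), but its groups overlapped and its levels were low. CD44 went from 189 to 179 FPKM without being called (limma adjusted p = 0.0732). Of the markers of other cell types, all endothelial, oligodendrocyte and epithelial genes were below 0.1 FPKM in every sample. The leukocyte gene PTPRC and the neuronal gene RBFOX3 were near 0, and the 3 leukocyte markers, mostly CD68, summed to 16.3 to 17.1 FPKM in sh-NC and 15.4 to 17.8 FPKM in sh-TRAF2. The summed neuronal list of 3 genes was 24.1 to 27.3 FPKM in sh-NC and 13.9 to 15 FPKM in sh-TRAF2, almost all of it SYT1. SNAP25, of the same list but below the filter for testing, had a mean of 0.297 FPKM in sh-NC and 0.598 FPKM in sh-TRAF2. The part of the glioma and neuronal marker changes in the results below was not tested.

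TRAF2 was reduced by most of its control level, and no other member changed by as much. Its level was 15.1, 18.4 and 15.3 FPKM in the 3 sh-NC samples and 3.26, 3.22 and 3.33 FPKM in the 3 sh-TRAF2 samples. The groups lay far apart, and the knockdown samples were closer to each other (SD 0.054 FPKM) than the control samples (SD 1.84 FPKM). The mean fell from 16.3 to 3.27 FPKM, which is 0.201-fold, a log2 fold change of -2.27 (SE 0.079, n = 3 per group, 95% interval -2.46 to -2.09, limma adjusted p = 1.16e-06). Only 1 of the 11870 genes tested had a lower fold change. Between 373 and 394 reads per knockdown sample still came from TRAF2, against 1811 to 2220 in the controls. In bulk RNA, fewer cells with TRAF2 transcript and less transcript in each cell cannot be told apart.

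**Figure D1:**
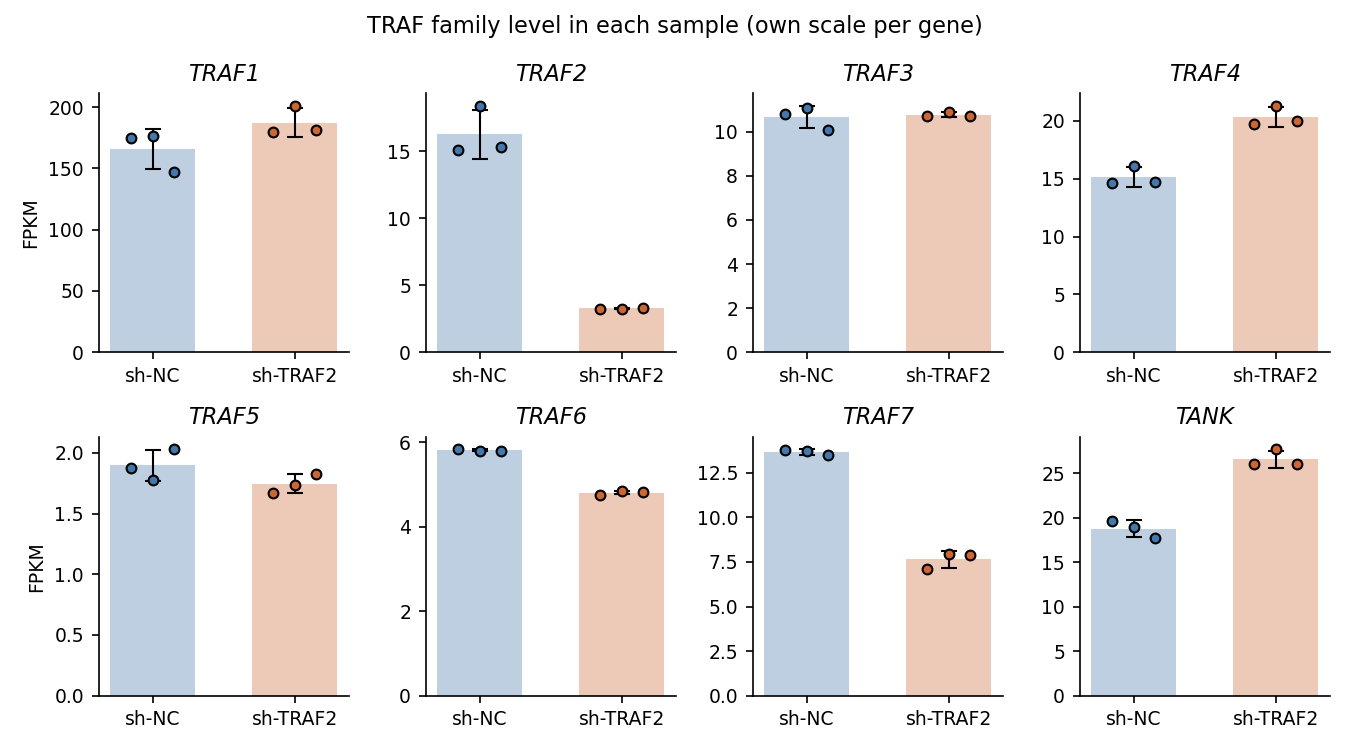
Level of each of the 8 family members in FPKM (y axis, own scale per gene, starting at 0) in the sh-NC and sh-TRAF2 groups; points are the 3 samples of a group, bars their mean and error bars the SD. TRAF2 and TRAF7 sit lower in every sh-TRAF2 sample, TRAF4 and TANK sit higher, and TRAF3 and TRAF5 overlap between the groups.

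Of the 8 members, 2 were called higher in sh-TRAF2 (TRAF4 and TANK) and 3 lower (TRAF2 itself, TRAF6 and TRAF7), at an adjusted p under 0.05. TRAF1, TRAF3 and TRAF5 were not called. These counts stand against a broad background, because 44.6% of all genes tested passed the same threshold, 23.7% as higher and 20.9% as lower. With a log2 fold change above 1 in size as a further condition, 1.72% of all genes passed and TRAF2 was the only member. The groups did not overlap for 6 of the 8 members and for 55.5% of all genes. An exact two-sided permutation test of a single gene cannot go below p = 0.1 with 3 samples against 3, and those 6 members each gave p = 0.1.

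Among the paralogues, TRAF4 was the one that rose. TRAF4 has a RING finger and a MATH domain as TRAF2 has, but is known mainly from development and from epithelial tumours and binds few receptors of the tumour necrosis factor family. It was measured at 14.6, 16.1 and 14.7 FPKM in sh-NC and at 19.7, 21.3 and 20 FPKM in sh-TRAF2. Every knockdown sample was above every control sample. The log2 fold change was 0.43 (SE 0.055, 95% interval 0.30 to 0.55, limma adjusted p = 0.00047), or 34.5% above the control mean. In size this was not unusual, since 17.5% of all genes tested had a larger change in either direction. The rise of TRAF4 amounted to 5.21 FPKM, while TRAF2 lost 13 FPKM. For comparison, the mean of TRAF1 differed by 21.8 FPKM, a difference that was not called and is described next.

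TRAF1 lacks the RING finger, forms mixed trimers with TRAF2 and is a known target gene of NF-kappaB. It was by far the most abundant member, at 175, 176 and 147 FPKM in sh-NC and 180, 201 and 181 FPKM in sh-TRAF2. The groups did not overlap, but the third control sample was well below the other two. The log2 fold change of 0.18 (SE 0.075, 95% interval 0.01 to 0.35) was not called (limma adjusted p = 0.0794). It passed with limma-voom on the recovered reads (log2 fold change 0.18, adjusted p = 0.0335), and it was 0.10 (adjusted p = 0.192) without sh-NC replicate 3 and 0.10 (adjusted p = 0.301) after quantile normalization. Without sh-TRAF2 replicate 2 it was 0.13 (adjusted p = 0.237). The call of TRAF1 thus depended on the fit, and its size on the scaling and on single samples of both groups.

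TRAF3 and TRAF5 are the paralogues nearest to TRAF2 in their receptors. TRAF3 binds TRAF2 in the complex that restrains MAP3K14, and TRAF5 shares many receptors with TRAF2. TRAF3 stood at 10.8, 11.1 and 10.1 FPKM in sh-NC and at 10.7, 10.9 and 10.7 FPKM in sh-TRAF2. The groups overlapped, and the log2 fold change was 0.01 with a 95% interval from -0.10 to 0.13 (limma adjusted p = 0.845), so that a change of TRAF3 beyond 0.932-fold or 1.09-fold lay outside the interval. Its sign was negative without sh-NC replicate 3 (-0.02) and after rescaling to TPM. TRAF5 was the least abundant member, with 1.88, 1.78 and 2.03 FPKM in sh-NC and 1.67, 1.74 and 1.83 FPKM in sh-TRAF2. These groups also overlapped, and the interval was wider than that of TRAF3 (log2 fold change -0.11, 95% interval -0.32 to 0.10, limma adjusted p = 0.352). TRAF5 rested on 481 to 625 reads per sample.

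TRAF6 and TRAF7 were lower. TRAF6 is the ubiquitin ligase of the Toll-like and interleukin-1 receptor pathways, and its samples were very close within each group, at 5.83, 5.79 and 5.80 FPKM in sh-NC and 4.76, 4.84 and 4.81 FPKM in sh-TRAF2. The decrease was small but larger than this spread (log2 fold change -0.27, SE 0.052, 95% interval -0.39 to -0.15, limma adjusted p = 0.0038), and 35.3% of all genes tested changed by more. TRAF7 is the most distant member, with WD40 repeats in place of the MATH domain, and is known as a gene mutated in meningioma. It was measured at 13.8, 13.7 and 13.5 FPKM in sh-NC and at 7.09, 7.97 and 7.88 FPKM in sh-TRAF2. After TRAF2, this was the largest change in the family, a log2 fold change of -0.83 (SE 0.057, 95% interval -0.96 to -0.70, limma adjusted p = 2.32e-05) or 0.56-fold of the control mean. Only 3.45% of all genes tested moved further in either direction. The 2 tested genes on each side of TRAF7 on chromosome 16 in GENCODE release 29 were not called, with log2 fold changes of 0.09 for SNHG19, 0.01 for PKD1, 0.03 for MLST8 and 0.53 for BRICD5 (limma adjusted p = 0.194). Of all genes tested, 44.6% were called. Every other member had a called gene among its neighbours found in the same way. Whether the fall of TRAF7 was confined to its position was not tested.

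TANK rose as well. Its level was 19.6, 19 and 17.7 FPKM in sh-NC and 26, 27.7 and 26 FPKM in sh-TRAF2, with no overlap between the groups. The log2 fold change was 0.50 (SE 0.051, 95% interval 0.39 to 0.62, limma adjusted p = 0.00015), which put the knockdown mean 41.8% above the control mean. A larger change in either direction was seen in 12.6% of all genes tested. In GENCODE release 29, TRAF4, TRAF7 and TANK each share exon positions with a gene on the opposite strand. Whether the counting used strand is not given in the sources used here, so a share of their reads could belong to those genes. CASKIN1, the gene opposite TRAF7, was measured at 0.0927 to 0.385 FPKM.

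**Figure D2:**
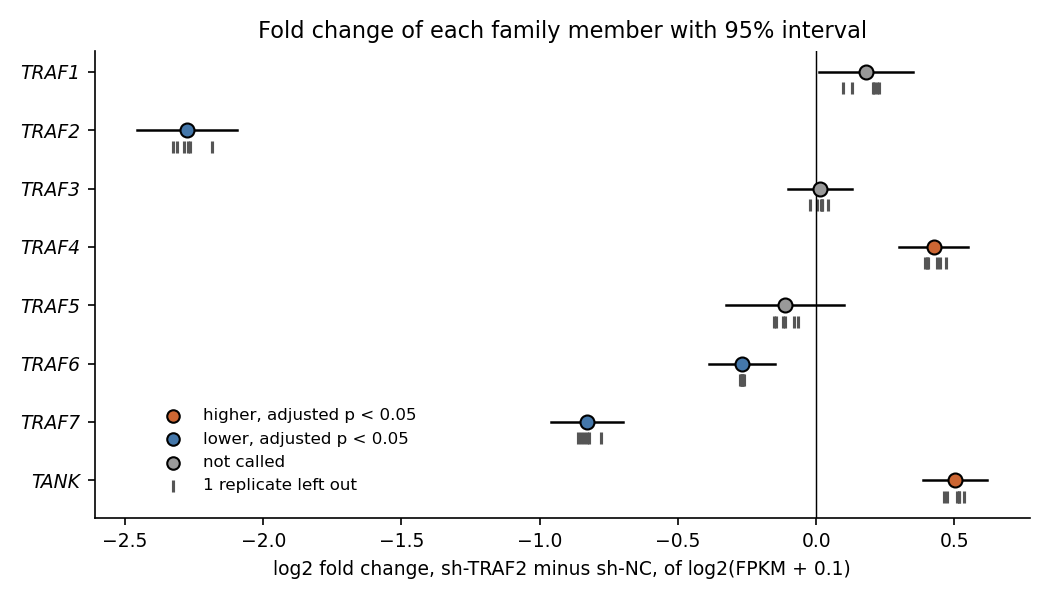
Log2 fold change of each member, sh-TRAF2 minus sh-NC, on the log2(FPKM + 0.1) scale (x axis); circles are the estimates from all 6 samples, black lines their 95% intervals, circle colours the call, and the grey ticks below each line the 6 estimates with 1 sample left out. TRAF2 lies at -2.27 and TRAF7 at -0.83, TRAF4 and TANK lie between 0.39 and 0.53 whichever sample is left out, and the ticks of TRAF3 fall on both sides of 0.

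The order of the members by level changed with the knockdown. In sh-NC the order by mean FPKM was TRAF1 (166), TANK (18.8), TRAF2 (16.3), TRAF4 (15.1), TRAF7 (13.7), TRAF3 (10.7), TRAF6 (5.80) and TRAF5 (1.90). TRAF2 overlapped there with its neighbours TANK and TRAF4, while the other neighbours in the order were separate. In sh-TRAF2 the order was TRAF1 (188), TANK (26.6), TRAF4 (20.3), TRAF3 (10.8), TRAF7 (7.65), TRAF6 (4.80), TRAF2 (3.27) and TRAF5 (1.75), with no overlap between neighbours. TRAF2 thus moved from between TANK and TRAF4 to between TRAF6 and TRAF5.

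Added up, the 5 paralogues TRAF3 to TRAF7 held 46.9, 48.4 and 46.1 FPKM in sh-NC and 43.9, 46.7 and 45.3 FPKM in sh-TRAF2. TRAF4 gained 5.21 FPKM, which offset part of the differences of TRAF6 (-1 FPKM) and TRAF7 (-6.01 FPKM). The sums of these 5 paralogues overlapped between the groups. With TRAF1, which outweighs the rest, the 6 paralogues summed to 221, 225 and 193 FPKM in sh-NC and 224, 248 and 226 FPKM in sh-TRAF2. The means were 213 ± 17.5 and 233 ± 13.3 FPKM (SD, n = 3), and the groups overlapped. The total of TRAF1 to TRAF7, TRAF2 included, was 229 ± 18.5 FPKM in sh-NC and 236 ± 13.2 FPKM in sh-TRAF2, with overlap. For TRAF2 to TRAF7, without TRAF1, the sum was 63.4 ± 2.96 FPKM (SD, n = 3) in sh-NC and 48.5 ± 1.41 FPKM in sh-TRAF2. TRAF2 made up 25.6% ± 1.69 of this sum in sh-NC and 6.74% ± 0.253 in sh-TRAF2. Of the total with TRAF1 it made up 7.11% ± 0.641 and 1.39% ± 0.0925. The ratio of TRAF3 to TRAF2, both parts of the complex that restrains MAP3K14, was 0.714, 0.603 and 0.66 in sh-NC and 3.27, 3.38 and 3.22 in sh-TRAF2. The ratio of TRAF1 to TRAF2 was 11.6, 9.58 and 9.55 in sh-NC and 55.3, 62.5 and 54.4 in sh-TRAF2. These ratios follow mainly from the fall of TRAF2 and describe transcripts, not proteins.

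**Figure D3:**
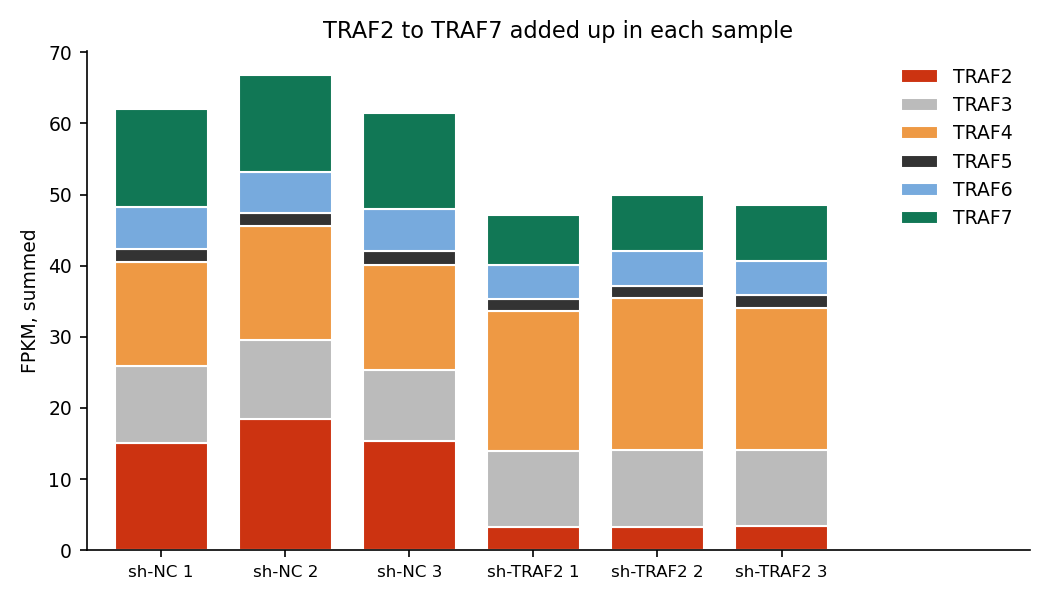
Summed FPKM (y axis) of TRAF2 to TRAF7 in each of the 6 samples, with 1 colour per gene; TRAF1 is left out because its level would hide the others. The TRAF2 segment shrinks in the 3 sh-TRAF2 samples, the TRAF4 segment is taller and the TRAF7 segment shorter, and the segments other than TRAF2 add up to 43.9 to 48.4 FPKM in all samples.

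The 5 genes whose pattern over the 6 samples was most like that of TRAF2 were MESD, ENTPD6, PDIA5, DNAAF9 and ELOVL1, with Pearson r between 0.9985 and 0.9998 on the log2 scale. MESD and PDIA5 encode proteins of the endoplasmic reticulum that assist folding. This likeness describes 6 points in 2 groups, and 1761 genes had an r above 0.9. All 5 were lower in sh-TRAF2, from -0.46 for DNAAF9 to -1.27 for PDIA5 in log2 fold change. In the GO terms deposited with the table, TRAF1 to TRAF6 shared "tumor necrosis factor receptor binding" with 29 genes in all and "plasma membrane signaling receptor complex" with 6 genes in all, neither of which TRAF7 or TANK carried.

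The proteins that work with the family were followed in lists of 77 measured genes outside it, of which 70 were tested. Of these, 17 were higher, 20 were lower and 33 were not called, with a median log2 fold change of -0.01 beside 0.02 for all genes tested. The share called, 52.9%, was near the 44.6% of all genes.

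Of the ligases and ubiquitin partners, 2 of 8 tested were higher and 2 lower. The share called was 50%, beside 44.6% of all genes tested. The pair of ligases that TRAF2 recruits moved in opposite directions. BIRC2 was 56.4, 54.7 and 53.8 FPKM in sh-NC and 69.4, 70.9 and 70.5 FPKM in sh-TRAF2 (log2 fold change 0.35, limma adjusted p = 0.000123). BIRC3, itself a target gene of NF-kappaB, was 72.1, 77 and 64.8 FPKM in sh-NC and 50.7, 54.5 and 49.3 FPKM in sh-TRAF2 (log2 fold change -0.47, limma adjusted p = 0.000754). BIRC3 was thus above BIRC2 in all 3 control samples and below it in all 3 knockdown samples. RNF31, the catalytic part of the linear ubiquitin ligase, was higher (log2 fold change 0.28, limma adjusted p = 0.00212).

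Among the adaptors next to the receptors, 3 of 11 were higher and 3 lower. The share called was 54.5%, beside 44.6% of all genes tested. FADD, which links death receptors to caspases, had the largest change of all listed genes that rose, from 13.1, 14 and 13.2 FPKM to 28.9, 30.3 and 27.2 FPKM (log2 fold change 1.10, limma adjusted p = 4.32e-06). IRAK1, the kinase that hands the signal to TRAF6, was higher (0.42), and SQSTM1, a scaffold that binds TRAF6, was lower (-0.33). TRAF6 and SQSTM1 thus fell while IRAK1 rose. IRAK4, of the same list, was also lower (log2 fold change -0.66, limma adjusted p = 0.000884), as was MAVS (-0.47, limma adjusted p = 0.000234). TRADD was higher (0.35, limma adjusted p = 0.00161). MYD88 was not called, and neither was IRAK2 (0.19, limma adjusted p = 0.0503), though the groups of IRAK2 did not overlap.

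Of 16 kinases and kinase adaptors, 7 were lower and 2 higher, with a median log2 fold change of -0.10. The share called was 56.2%, beside 44.6% of all genes tested, of which 20.9% were called lower. TAB3, an adaptor of the TAK1 kinase, fell from 3.93, 3.82 and 4.02 FPKM to 2.34, 2.30 and 2.32 FPKM (-0.73, limma adjusted p = 8.27e-05). MAP4K2, a kinase that binds TRAF2, was low throughout, at 1.09 to 1.13 FPKM in sh-NC and 0.376 to 0.465 FPKM in sh-TRAF2 (-1.25). CHUK, the IKK kinase of the non-canonical pathway, fell by 0.42 on the log2 scale. MAP3K14, whose protein the TRAF2 and TRAF3 complex keeps low, was 13.4, 13.6 and 11.9 FPKM in sh-NC and 9.66, 11.4 and 10.3 FPKM in sh-TRAF2 (-0.31, limma adjusted p = 0.0119). This is the level of its transcript and does not measure the kinase protein.

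The kinases that bind TANK did not rise with it. TBK1 was 19.9, 17.8 and 18 FPKM in sh-NC and 15.2, 15.1 and 14.6 FPKM in sh-TRAF2, a decrease (log2 fold change -0.31, SE 0.054, limma adjusted p = 0.00232). IKBKE overlapped between the groups (8.95 to 11.8 against 8.80 to 11.3 FPKM) and was not called (-0.07, limma adjusted p = 0.659). TANK and TBK1 were at about the same FPKM in the controls, with a ratio of 1.01 ± 0.0495, and the ratio was 1.78 ± 0.0578 in the knockdown (SD, n = 3). AZI2, an adaptor of TBK1 that works like TANK, was higher (0.28), and IRF3, the transcription factor that TBK1 phosphorylates, was not called (0.05, limma adjusted p = 0.406).

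Of 8 tested genes for proteins that bind TRAFs or work beside them, 3 were higher and 1 lower. The share called was 50%, beside 44.6% of all genes tested. The genes with the smallest adjusted p were TRAIP (0.17), TRAF3IP1 (-0.31) and TNIP1 (0.11). Of 9 deubiquitinases that act on TRAF signalling, 3 were lower and 0 higher. The share called was 33.3%, below the 44.6% of all genes tested, and 20.9% of all genes tested were called lower. USP25, which removes ubiquitin from TRAF proteins, fell from 12.4, 11.7 and 12.8 FPKM to 7.37, 7.48 and 8.18 FPKM (-0.67), and OTUB1 (-0.26) and UCHL1 (-0.16) fell by less. Of 4 tested genes outside the family whose proteins hold a MATH domain, SPOPL was lower (-0.57), while the other 3, USP7 (-0.10) and SPOP (0.03) among them, were not called.

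Of 13 genes known to respond to NF-kappaB, TRAF1 and BIRC3 included, 6 were higher and 3 lower. The share called was 69.2%, beside 44.6% of all genes tested. The median log2 fold change of 0.18 was the value of TRAF1, which was not called. The direction was mixed. NFKB2, the precursor of p52 in the non-canonical pathway, was 112, 116 and 103 FPKM in sh-NC and 139, 148 and 145 FPKM in sh-TRAF2 (0.38, limma adjusted p = 0.000467). CCL2, a chemokine, was 130, 137 and 127 FPKM in sh-NC and 49.1, 62.1 and 58.7 FPKM in sh-TRAF2 (-1.22, limma adjusted p = 1.86e-05). A match to the kappaB consensus, searched on both strands, was found in the promoter windows of 2 members in RefSeq (GRCh38.p14). It was ggaagttccc at -46 from a start of TANK and ggggatttcc at -33 from the start of TRAF3, and 11.3% of all 35116 windows of 300 bases held one. The windows of TRAF1 held no such letters, and no binding was measured.

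**Figure D4:**
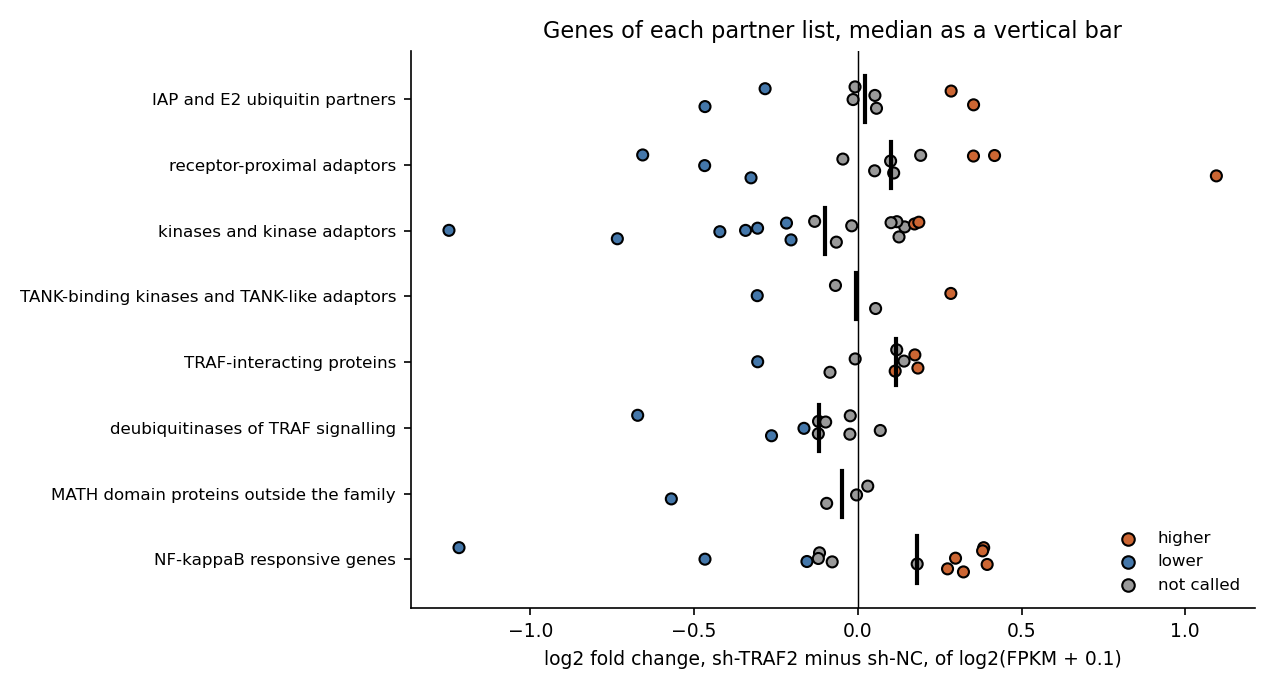
Log2 fold change, sh-TRAF2 minus sh-NC, of each tested gene (x axis, on the log2(FPKM + 0.1) scale) in 8 lists of genes that work with the family; orange points were higher and blue points lower at an adjusted p under 0.05, grey points were not called, and the vertical bar is the median of a list. FADD stands at 1.10, MAP4K2 at -1.25 and CCL2 at -1.22, and the medians lie between -0.12 and 0.18.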

How the data were processed

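Messenger RNA of 6 U251 samples was sequenced after TRIzol extraction, and the authors deposited FPKM for each gene and sample in 1 table, which also lists GO terms. The submitters' processing notes name HISAT2, HTSeq, DESeq2 and R 3.2.0. Genome build, annotation and strand setting are not given in the sources used here. Groups were taken from the sample labels.

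From the deposited FPKM, log2(FPKM + 0.1) was computed and genes with a mean FPKM under 0.5 were left out, since a pseudocount shrinks the changes of low genes. The 11870 remaining genes were compared with limma 3.58.1 in R 4.3.3 (eBayes with a trend, two-sided, Benjamini-Hochberg adjustment over all genes). The fit was also run on simulated reads in which only a small part of the genes changed. Because far more genes were called in these data, that run does not measure false calls here. Whole reads were recovered from the FPKM steps. For every gene the lowest whole numbers that gave its values were used, so a gene whose reads share a common factor can be understated. This includes 2643 genes with reads in 1 sample only. Reads limit the precision of low genes such as TRAF5.

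The members and lists were chosen with earlier results of these data known. All members were named, and of each list the 3 genes with the smallest adjusted p, with BIRC2, BIRC3, MAP3K14, TBK1 and IKBKE named whatever their values, and the 5 genes nearest to TRAF2 by Pearson r. Neighbours of the members and the gene opposite TRAF7 were looked up after the values of the members were seen. IRAK4, MAVS, TRADD, IRAK2 and MYD88 were named outside this rule, with their values known. The alternatives were other pseudocounts, filters, scalings and fits, a block for the replicate number, and each sample left out. MEP1A was not analysed here. UBE2V1, NOD2, TBKBP1, IRF7, TRAF3IP3, OTUB2 and MEP1B were below the filter.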

Additional observations from a re-analysis of the deposited data

How the results depend on the processing

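Each result was recomputed under 16 alternatives, and 234 of 240 values kept their direction and their side of the threshold, or for a count stayed within 1.5 times. TRAF1 passed the threshold under 2 of them, with a log2 fold change of 0.18 in the fit with a replicate block (adjusted p = 0.0268) and 0.18 with limma-voom on recovered reads (adjusted p = 0.0335); over all alternatives its adjusted p ran from 0.0268 to 0.301, and the cause was not tested. TRAF3 changed sign after TPM rescaling (-0.0002) and without sh-NC replicate 3, with leave-one-out values from -0.0225 to 0.0427. The number of genes called with a log2 fold change above 1 in size was 87 with a pseudocount of 1, which shrinks the changes of low genes, and 413 with limma-voom, which tested 14130 genes, against 204 in the main analysis. Deviations of samples with the same replicate number correlated at -0.081, 0.072 and 0.073, against -0.141 to 0.067 for samples of different numbers. With so few samples per group, values this small cannot settle whether the numbers pair the samples. The replicate block changed the call of no member except TRAF1. Leaving out 1 sample at a time gave log2 fold changes of 0.10 to 0.23 for TRAF1, -2.33 to -2.18 for TRAF2, 0.39 to 0.47 for TRAF4, -0.15 to -0.07 for TRAF5, -0.27 to -0.26 for TRAF6, -0.86 to -0.78 for TRAF7 and 0.46 to 0.53 for TANK. Scaling moved the median of all genes by less than 0.02.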
